A study of Mus musculus with 5 samples.

Results

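The cells described here were found inside the lymphoid-primed multipotent progenitor (LMPP) library by the RNA of 3 genes of the red cell lineage: Car1, which encodes a carbonic anhydrase of early erythroid cells, Klf1, the erythroid Krüppel-like transcription factor, and Ermap, a membrane protein of erythroid cells. A cell was selected when it held 5 or more UMIs (unique molecular identifiers, 1 for each captured RNA molecule) of the 3 genes together. It also had to pass a barcode filter of at least 500 genes, at least 1000 UMIs and at most 10% of UMIs in mitochondrial genes. Of 8033 LMPP cells that passed the filter, 84 were selected. That was 1.05% of them, with an exact Clopper-Pearson 95% interval of 0.835% to 1.29% that covers counting error only. The whole series held 42104 cells past the filter.

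The study profiled single bone marrow cells of wild-type Balb/C mice aged 8 to 12 weeks with the 10x Genomics 3′ method. Marrow cells were enriched on c-Kit and sorted as lineage-negative and c-Kit+. LMPPs were also Sca-1+, CD34+ and Flt3+, common myeloid progenitors (CMPs) were Sca-1-, CD34+ and CD16/32 low, and granulocyte-monocyte progenitors (GMPs) were Sca-1-, CD34+ and CD16/32 high. There was 1 LMPP library, 1 CMP library and 3 GMP libraries, and the labels do not say how many mice gave each. The lineage antibodies included TER-119, which binds late erythroid cells, and red cells had been lysed. With 1 library for each of LMPP and CMP, no difference between them has a replicate check. All values below describe these libraries, without p-values, and every interval covers counting error only.

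As background, red cells arise from multipotent progenitors that pass through erythroid burst-forming and colony-forming stages. The transcription factor GATA1 takes over from GATA2 at this step and works with FOG1 (Zfpm1), TAL1, LMO2, LDB1 and KLF1 on genes for heme synthesis, the red cell membrane and hemoglobin. Erythropoietin acts through its receptor (Epor), and transferrin receptor (Tfrc) brings in the iron for heme. An LMPP, in the usual scheme, has lymphoid and granulo-monocytic potential and little erythroid potential. Its defining surface protein is FLT3.

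The 3 selection genes separated the LMPP cells into groups with few cells between. Their summed UMI count was 0 in 7160 LMPP cells, 1 in 723, 2 in 57, 3 in 6 and 4 in 3. Just above the threshold, no LMPP cell had 5 UMIs, 6 cells had 6, 2 had 7, 1 had 8 and 2 had 9. The remaining 73 selected cells had 10 or more. The lowest, median and highest sums among selected cells were 6, 51.5 and 292. These values chose the cells and are given as a description.

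**Figure D1:**
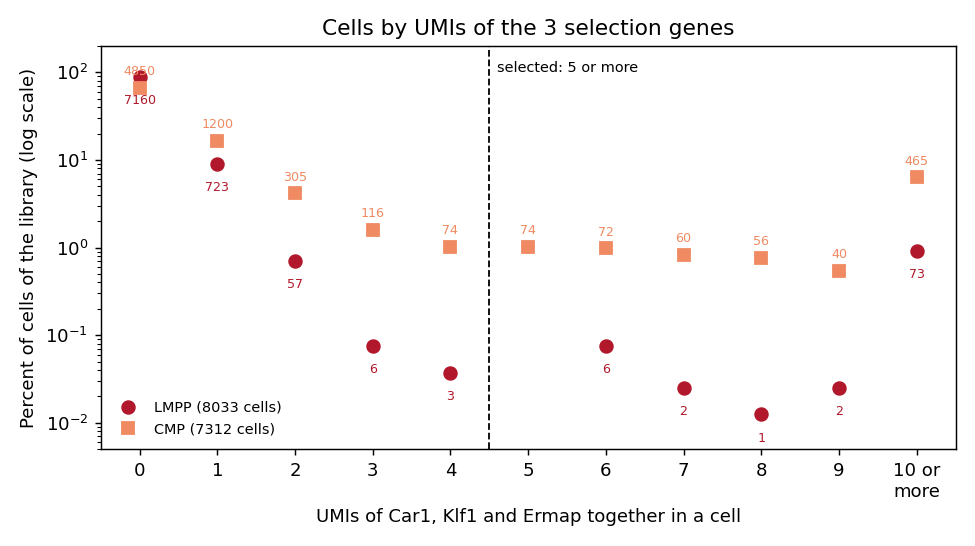
Percent of filtered cells (log scale) at each summed UMI count of Car1, Klf1 and Ermap in the LMPP and CMP libraries, with the number of cells beside each point and a dashed line at the selection threshold. LMPP cells thin out to 3 at a sum of 4 and 0 at a sum of 5, while the CMP library holds 74 cells at each of those sums.

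In the CMP library the same rule selected 767 of 7312 cells, or 10.5% (exact 95% interval 9.80% to 11.2%), and the sums ran on without a gap. CMP cells numbered 74 at a sum of 4 and 74 at a sum of 5, and 465 had 10 or more. The median sum was 12 in selected CMP cells. In the GMP libraries the rule selected 9, 27 and 6 cells, a mean of 0.150% ± 0.109 (SD, n = 3) of filtered cells. "CMP cells in the same gate" is taken here as CMP cells past the same filter and threshold.

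Every one of the 84 selected LMPP cells held Car1 RNA, from 2 to 248 UMIs with a median of 41. Klf1 was seen in 69 cells with up to 30 UMIs, and Ermap in 67 cells with up to 40. All 3 genes were seen together in 60 cells. Pooled over the cells, Car1 made up 2065 CPM (the gene's UMIs for each 1000000 UMIs of the group) in selected LMPP cells and 1139 in selected CMP cells. Klf1 stood at 168 and 141 CPM in these groups, and Ermap at 282 and 111. The genes lie, in GENCODE M21 coordinates on GRCm38, at chr3:14766216-14808368 on the minus strand (Car1), chr8:84901928-84905291 on the plus strand (Klf1) and chr4:119175457-119190011 on the minus strand (Ermap). Gata1, the marker outside the rule, lies at chrX:7959260-7978071 on the minus strand. All are protein-coding genes.

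The DNA before a RefSeq start of some of these genes is shown because the genes were high in the same cells and because GATA factors and Krüppel-like factors are known to bind short motifs near erythroid genes. The sequences come from RefSeq (GRCm38.p6). Each is the stretch of the 250 bases before the first listed start that lies outside GENCODE exons, in the direction of transcription. Capitals mark matches on either strand to the GATA letters AGATAA or TGATAA, or to the CACCC-type letters CCNCNCCC, which can overlap one another. The stretches are chr8:84901732-84901927 (Klf1, plus strand), chr4:119190012-119190245 (Ermap, minus strand), chrX:7967911-7968160 (Gata1, minus strand), chr17:40810899-40811125 (Rhag, plus strand) and chr4:134864286-134864535 (Rhd, plus strand). The Gata1 stretch lies inside the GENCODE span of the gene given above, which begins further upstream, and before the RefSeq start. Rhag and Rhd encode Rh proteins of the red cell membrane.
Klf1: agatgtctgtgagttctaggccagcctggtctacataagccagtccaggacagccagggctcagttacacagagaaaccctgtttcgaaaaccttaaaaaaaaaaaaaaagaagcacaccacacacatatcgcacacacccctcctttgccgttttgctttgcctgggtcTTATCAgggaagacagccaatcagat
Ermap: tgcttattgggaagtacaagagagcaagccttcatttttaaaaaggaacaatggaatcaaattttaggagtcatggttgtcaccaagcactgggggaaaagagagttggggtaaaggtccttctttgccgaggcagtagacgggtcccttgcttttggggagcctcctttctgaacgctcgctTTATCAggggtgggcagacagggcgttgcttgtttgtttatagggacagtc
Gata1: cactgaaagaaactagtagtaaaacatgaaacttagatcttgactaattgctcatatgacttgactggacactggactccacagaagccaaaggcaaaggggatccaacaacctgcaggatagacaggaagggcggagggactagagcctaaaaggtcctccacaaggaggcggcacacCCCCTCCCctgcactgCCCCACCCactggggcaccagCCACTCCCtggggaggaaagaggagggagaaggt
Rhag: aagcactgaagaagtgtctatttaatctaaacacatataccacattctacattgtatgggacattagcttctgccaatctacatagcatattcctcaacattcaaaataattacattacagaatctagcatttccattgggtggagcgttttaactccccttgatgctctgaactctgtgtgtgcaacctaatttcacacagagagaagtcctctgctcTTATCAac
Rhd: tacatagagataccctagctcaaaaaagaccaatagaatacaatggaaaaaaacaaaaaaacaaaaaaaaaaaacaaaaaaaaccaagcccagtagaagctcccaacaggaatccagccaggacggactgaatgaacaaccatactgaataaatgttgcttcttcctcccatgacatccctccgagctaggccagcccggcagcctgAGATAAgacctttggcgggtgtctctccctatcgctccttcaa
The stretches of Klf1, Ermap, Rhag and Rhd each held 1 GATA match, which began 80, 67, 31 and 43 bases before the RefSeq start. That of Gata1 held 3 CACCC-type matches and no GATA match. Over the same 250 bases, 17.0% of 27025 genes with a listed start had a GATA match, and 45.6% had a CACCC-type match. Of 16 genes looked up (the 3 selection genes, Gata1 and the 12 non-rule genes with the largest fold), 13 were listed. Of these 13, 5 had a GATA match and 7 a CACCC-type match. The 5 stretches printed are those of the Rh genes and of the marker genes except Car1, which was not listed. They are no sample of the rest, and of the 5 listed genes with a GATA match all but Ces2g are printed. A match says only that these letters are present.

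The selected cells held more RNA than the other LMPP cells. Their UMI counts were 3676 at the lowest, 25786 at the median and 104706 at the highest, against a median of 9226.5 in the 7160 LMPP cells with a sum of 0. Median genes detected were 4687.5 and 3026. The median in selected CMP cells was 12654 UMIs. At 20000 UMIs or more were 56 of the 84 selected LMPP cells (66.7%), 10.4% of LMPP cells with a sum of 0 and 22.2% of selected CMP cells. Mitochondrial genes took a median of 1.56% of UMIs in selected cells and 1.42% in cells with a sum of 0.

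Doublet scoring within the library called 12 of the 84 selected cells (14.3%) and 402 of the 7160 cells with a sum of 0 (5.61%). The part of depth and doublets in the differences below was not tested. None of the 84 cell barcodes occurred in another library, which allows a share of up to 3.57%. Across all LMPP barcodes, 18 to 23 were shared with each other library (0.222% to 0.283%).

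The label was checked with Gata1, the marker that took no part in the selection. Gata1 UMIs were found in 62 of the 84 selected cells, from 0 to 12 UMIs a cell. The pooled level was 81.3 CPM in selected LMPP cells, 1.24 in LMPP cells with a sum of 0, 107 in selected CMP cells and 17.0 in CMP cells with a sum of 0. The LMPP ratio was 65.4-fold (95% interval 51.1 to 84.1), or 5.20 on the scale of log2(CPM + 1). After each cell was thinned to 2000 UMIs, a Gata1 UMI remained in 14.3% of selected cells, 0.239% of LMPP cells with a sum of 0 and 20.9% of selected CMP cells. LMPP cells with 2 or more UMIs of the lymphoid genes Il7r and Ebf1 together are called cells with Il7r or Ebf1 RNA below. In these cells, which should lack Gata1, a Gata1 UMI was found in 0 of 359 cells thinned and in 1.11% unthinned.

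Across the genome, 6464 genes had 20 or more CPM in selected LMPP cells or in LMPP cells with a sum of 0, leaving out the selection genes. Of these, 408 (6.31%) were 2-fold or more higher in selected cells and 1090 (16.9%) were 2-fold or more lower, with a median log2 fold of -0.06. The 408 genes were spread over cells. Their median gene was seen in 53 of 84 cells, 294 were seen in at least 42 cells, and 2 had most of their UMIs in 1 cell. Without the called doublets, 442 genes were higher and 1197 lower. Against the 1409 LMPP cells with a sum of 0 at or above the lower quartile of selected cells' UMIs, 293 were higher and 1026 lower. Since the cells were chosen on genes of the same contrast, these shares are descriptions. A gene that reached 20 CPM only in the group where it is higher tended to differ by that alone, so the counts of list genes that follow, in either direction, are partly set by the level.

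The same contrast within the CMP library covered 5842 genes, of which 183 (3.13%) were higher and 258 (4.42%) were lower in selected CMP cells. Among 5597 genes passing the level in both libraries, 325 were higher in LMPP and 163 in CMP. Higher in both were 121 genes, which is 37.2% of the 325 and 74.2% of the 163. Of the same 5597 genes, 801 were lower in LMPP and 241 in CMP. Lower in both were 233 genes, 29.1% of the 801 and 96.7% of the 241. Both contrasts were chosen on the same 3 genes, so this overlap is a description. No gene was 2-fold different in opposite directions.

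The erythroid gene lists held 59 genes that reached 20 CPM in at least 1 of the 4 groups. Of these, 41 were 2-fold or more higher in selected LMPP cells than in LMPP cells with a sum of 0, and 2 were 2-fold lower. In CMP the numbers were 34 and 0. Over all genes tested, 6.31% were 2-fold higher and 16.9% lower in LMPP, and 3.13% and 4.42% in CMP. Of the 59, 28 reached the level within LMPP only through the selected cells. Of the 31 that also reached it in LMPP cells with a sum of 0, 14 were 2-fold higher and 2 were 2-fold lower. The median log2 fold was 2.03 in LMPP and 1.17 in CMP. For 40 of the 59 genes the fold was larger in LMPP. All 59 reached the level within LMPP, but not all did within CMP. There it was reached by 7 of the 12 membrane genes, 10 of the 15 other early erythroid genes and 0 of the 2 globin genes. The comparison of folds between the libraries is thus partly set by the level.

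**Figure D2:**
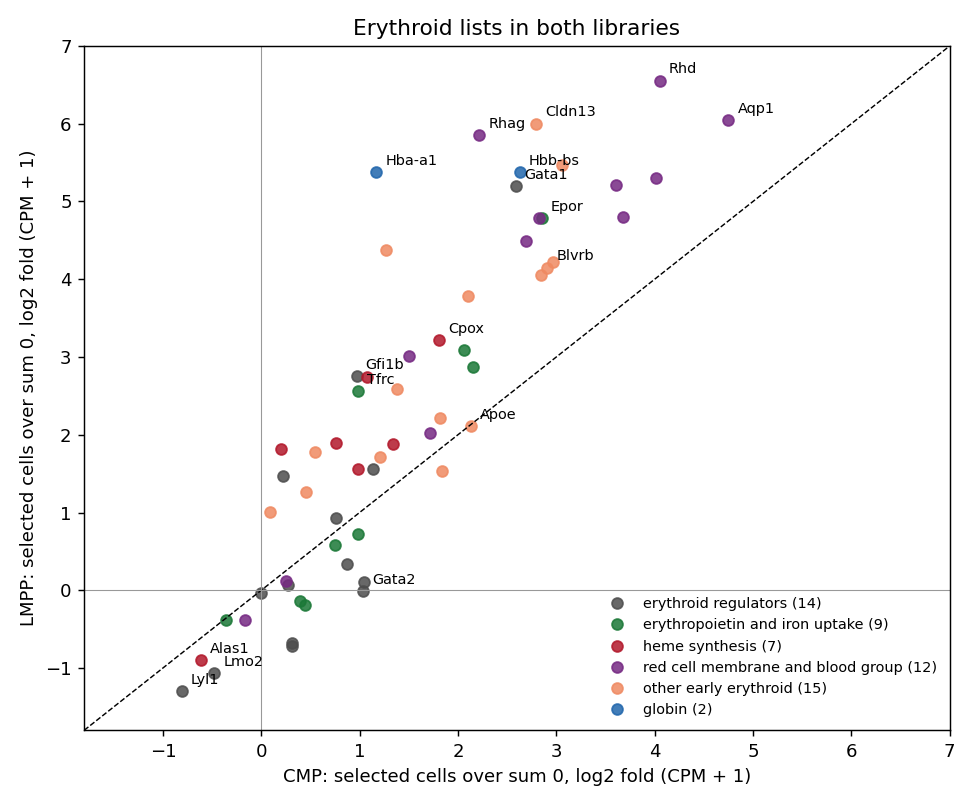
Log2 fold (CPM + 1) of genes of 6 erythroid lists, selected cells over cells with a sum of 0, in CMP (x axis) and LMPP (y axis), 1 point a gene, with the number of genes of each list in the legend. The dashed line marks equal folds, and 40 of the 59 points lie above it. All 59 genes reached 20 CPM within LMPP, but not all did within CMP.

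The erythroid transcription factors differed among themselves. Of 14 regulators with enough RNA, 4 were 2-fold higher, 2 were 2-fold lower and the median log2 fold was 0.09. Summed over the list, regulators were at 1410 CPM in selected LMPP cells against 1472 (ratio 0.958, 0.926 to 0.990). The ratio of the list within CMP was 1.33. Of the 14, 2 reached the level only through the selected cells. Of the other 12, 2 were 2-fold higher and 2 were 2-fold lower. Besides Gata1, Gfi1b, a repressor needed for red cell and platelet formation, stood at 61.3 against 8.24 CPM (7.43-fold, 6.19 to 8.88). Zfpm1, the GATA1 cofactor FOG1, stood at 133 against 44.5 (2.99-fold, 2.66 to 3.35). E2f4, a cell cycle factor needed for erythroid expansion, stood at 106 against 37.5 (2.82-fold, 2.48 to 3.20).

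Gata2, the factor of earlier progenitors, was at 42.9 CPM in selected LMPP cells and 43.1 in cells with a sum of 0 (ratio 0.993, 0.812 to 1.20). In selected CMP cells it was at 152, 3.54-fold above the selected LMPP cells (2.91 to 4.35), and in CMP cells with a sum of 0 at 73.6. Gata2 UMIs occurred in 46 selected LMPP cells, and 35 cells held UMIs of both Gata1 and Gata2. Lower in selected LMPP cells than in cells with a sum of 0 were Lyl1, a stem cell relative of TAL1, at 41.3 against 103, and Lmo2, at 228 against 477 CPM. Tal1 itself was at 70.9 against 36.7 (1.93-fold, 1.65 to 2.25), just short of 2-fold.

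Receptors and iron uptake came next. Of 9 genes with enough RNA on this list, 4 were 2-fold higher and none was 2-fold lower. But 5 of the 9 reached the level only through the selected cells, and of the other 4 none was 2-fold higher. Epor, the erythropoietin receptor, was at 41.2 CPM in selected LMPP cells, 0.533 in LMPP cells with a sum of 0 and 25.7 in selected CMP cells. Its UMIs were found in 41 of 84 selected LMPP cells. Tfrc, the transferrin receptor, was at 116, 18.7 and 31.1 CPM in the same groups, 3.72-fold higher in selected LMPP than in selected CMP cells (3.18 to 4.36). Steap3, an endosomal iron reductase, and Slc11a2, an iron transporter, were 9.43-fold and 9.29-fold higher than in LMPP cells with a sum of 0. Jak2 and Stat5a, which carry the erythropoietin signal, had ratios of 1.69 and 1.51. Stat5b and Slc25a37, also on this list, had ratios of 0.908 (0.696 to 1.17) and 0.761 (0.577 to 0.985). Cish, below the level in both groups, was at 4.41 against 11.2 CPM. Kit, the stem cell factor receptor that was part of the sort, was at 129 against 147.

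Heme synthesis genes were higher in all but 1 of the 7 members with enough RNA. Of the 7, 1 reached the level only through the selected cells, and 5 of the other 6 were 2-fold higher. Together the 10 measured genes made up 1321 CPM in selected LMPP cells, 353 in cells with a sum of 0 and 1135 in selected CMP cells, a ratio of 3.75 (3.61 to 3.88) within LMPP. Cpox, which makes protoporphyrinogen, stood at 243 against 25.3 CPM (9.63-fold, 8.78 to 10.6). In selected CMP cells Cpox was at 69.4 CPM. Fech, which inserts the iron, was at 58.9 against 15.1, and Tmem14c, a porphyrin carrier of mitochondria, at 473 against 133.

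Alad, an early enzyme of the pathway, ran the other way between the libraries. It was at 178 CPM in selected LMPP cells and 528 in selected CMP cells, and at 47.6 and 208 in the cells with a sum of 0 of each library. Alas1, the housekeeping form of the rate-limiting enzyme, was at 27.6 against 52.5. Alas2, the form made by hemoglobin-producing cells, gave 0 UMIs in the 84 cells, which allows up to 1.20 CPM.

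Of 12 red cell membrane and blood group genes with enough RNA, 10 were 2-fold higher, and these 10 reached the level only through the selected cells. The list's sum, with the broadly expressed Cd47, was 1.74-fold higher (1.67 to 1.80). Rhd was at 142 CPM in selected LMPP cells, 0.520 in LMPP cells with a sum of 0 and 23.7 in selected CMP cells. Rhag, the Rh-associated glycoprotein, was at 70.1, 0.228 and 4.66 in those groups, and so 15.1-fold higher in selected LMPP than in selected CMP cells (11.0 to 20.9).

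The membrane skeleton genes were present at low levels. Ank1 (ankyrin) and Add2 (adducin) were at 29.2 and 46.5 CPM in selected LMPP cells, and at 0.342 and 0.279 in cells with a sum of 0. Aqp1, a water channel, was at 146 against 1.23, and at 197 in selected CMP cells. Slc4a1, the band 3 anion exchanger of mature red cells, gave 4 UMIs, all in 1 cell. Cd47 and Epb41, which many cell types express, had ratios of 0.764 and 1.09.

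Globin RNA was carried by few of the selected cells. Hbb-bs, an adult beta globin gene, was at 128 CPM in selected LMPP cells, 2.11 in cells with a sum of 0 and 7.99 in selected CMP cells. Hba-a1, an adult alpha globin gene, was at 68.1, 0.659 and 1.49. Hbb-bs UMIs occurred in 23 of the 84 cells and Hba-a1 UMIs in 15. A single cell of 16552 UMIs held 204 of the 320 Hbb-bs UMIs and 94 of the 170 Hba-a1 UMIs, and without it the levels were 46.8 and 30.6 CPM. This cell also held the 4 Slc4a1 UMIs, and was not called a doublet. The adult alpha pair (Hba-a1 and Hba-a2) and the adult beta pair (Hbb-bs and Hbb-bt) are near-identical, so reads may be divided between copies. In LMPP cells with Il7r or Ebf1 RNA, Hbb-bs was seen in 2.49% of cells, against 27.4% of selected cells, before thinning.

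The other early erythroid genes together were 3.97-fold higher in selected LMPP cells than in cells with a sum of 0 (3.89 to 4.04). Of the 15 with enough RNA, 8 reached the level only through the selected cells, and the remaining 7 were each 2-fold or more higher. Blvrb, biliverdin reductase B, was at 822 against 45.4 CPM and was seen in 83 of 84 cells. Prdx2, a peroxidase abundant in red cells, was at 1757 against 513. Car2, another carbonic anhydrase, was at 907 against 376, and at 235 in selected CMP cells. Cldn13, a mouse claudin, was at 84.1 against 0.330, and at 6.68 in selected CMP cells. Apoe, apolipoprotein E, was at 270 against 61.6, and at 1286 in selected CMP cells. Apoe also differed between the cells with a sum of 0, at 61.6 in LMPP and 293 in CMP.

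Across all genes outside the rule, the 12 with the largest fold in the LMPP contrast were Mt2, Rhd, Aqp1, Slc25a21, Cldn13, Ces2g, Tspo2, Trib2, Rhag, Atp1b2, Slc38a5 and Sphk1. Mt2, a metallothionein that binds zinc, was at 228 CPM in selected LMPP cells and 0.901 in cells with a sum of 0. It was seen in 53 of 84 cells and stood at 34.5 in selected CMP cells. Slc25a21, a mitochondrial carrier, was at 76.1 against 0.190, and Tspo2, an erythroid member of the translocator protein family, at 72.5 against 0.228. Trib2, a pseudokinase, was at 101 against 0.710, and at 126 in selected CMP cells.

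Neutrophil genes were prominent among those lower in selected cells. The 12 genes with the largest fold downwards were S100a8, Ngp, Arl4c, Camp, Igkc, Ms4a3, S100a9, Elane, Basp1, Cd74, Lcn2 and Ltb. S100a8, a calcium-binding protein of neutrophils, was at 55.3 CPM in selected cells and 800 in cells with a sum of 0. Elane, neutrophil elastase, was at 70.5 against 755.

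The genes of the LMPP sort gate were lower in the selected cells, apart from Kit. Flt3, the receptor that defines LMPPs, was at 21.6 CPM against 130 in cells with a sum of 0, which was 6.01-fold higher. Cd34 was at 45.3 against 336. Ly6a, which encodes Sca-1, was at 3.60 against 18.3. No UMI of Flt3 was found in 50 of the 84 cells, none of Cd34 in 40 and none of Ly6a in 77, while 53 cells had a UMI of at least 1 of these genes. The sort was on surface protein and these are RNA counts.

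Because selected cells were deeper, shares of cells are compared after thinning to 2000 UMIs. Flt3 was then seen in 2.38% of selected cells, 21.1% of LMPP cells with a sum of 0 and 1.83% of selected CMP cells. The 2.38% is 2 of the 84 cells. Cd34 was seen in 4.76%, 45.7% and 10.4%, and Kit in 25.0%, 26.0% and 13.8%. Unthinned, Flt3 was seen in 40.5% of selected cells and 60.8% of cells with a sum of 0. Ly6a was likewise seen in 2 selected cells, too few to set against 3.62% of LMPP cells with a sum of 0. Flt3 and Cd34 RNA were thus low in cells that carry the LMPP label.

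**Figure D3:**
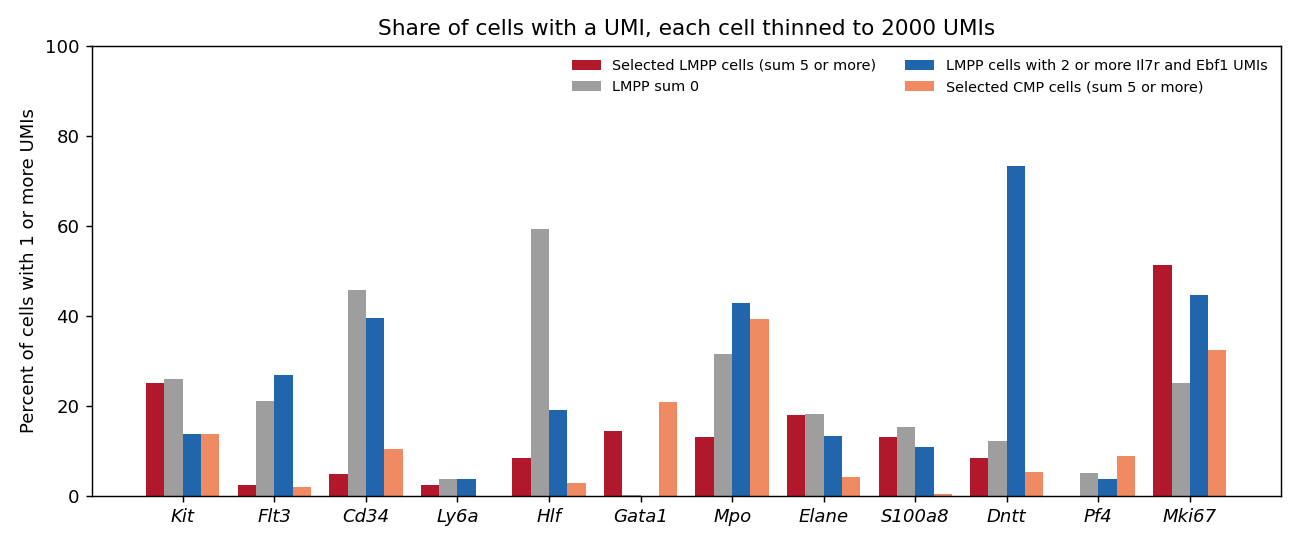
Percent of cells with at least 1 UMI of each gene after thinning every cell to 2000 UMIs, in the 84 selected LMPP cells, LMPP cells with a sum of 0, LMPP cells with 2 or more Il7r and Ebf1 UMIs together, and selected CMP cells. Flt3 (2.38%) and Cd34 (4.76%) are low in selected LMPP cells, Kit (25.0%) is near the LMPP cells with a sum of 0, and S100a8 is at 10.9% to 15.2% in the 3 LMPP groups.

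Stem and multipotent genes were also lower as a list, with 8 of 10 genes 2-fold lower, none 2-fold higher and a median log2 fold of -2.20. Hlf, a stem cell transcription factor, was at 81.7 CPM against 516, and in 8.33% against 59.3% of cells after thinning. Mecom was at 15.6 against 114 and Meis1 at 46.9 against 225. Ifitm1, an interferon-induced membrane protein, and Mllt3 were not 2-fold lower. Ifitm1 was at 856 against 1010 CPM in LMPP, where the whole list was at 1300 against 2870. It thus made up most of the list's RNA in selected LMPP cells, but not in LMPP cells with a sum of 0. In CMP, Ifitm1 was at 1812 in selected cells against 550 in cells with a sum of 0.

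Lymphoid, granulo-monocytic, megakaryocyte and neutrophil lists were lower in selected cells. All 7 lymphoid-primed and B cell genes with enough RNA were 2-fold lower, as were 8 of 9 granulo-monocytic, all 5 megakaryocyte and all 6 mature neutrophil genes. Over all genes tested, 16.9% were 2-fold lower. Summed over each list, selected LMPP cells had 115 against 645 CPM for the lymphoid list and 783 against 3264 for the granulo-monocytic list. The megakaryocyte list gave 66.9 against 315, with no UMI of the platelet gene Vwf. No macrophage and no basophil or mast cell gene reached the level. The macrophage list gave 4.41 against 16.6 and the T and NK cell list 22.0 against 98.3. For basophil and mast cell genes it was 41.2 against 50.8 CPM, and the 23 UMIs of the mast cell protease Cma1 all came from 1 cell.

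The shares of cells with an S100a8 or an Elane UMI were close between the LMPP groups, but the level of neutrophil RNA differed. The mature neutrophil list took 183 CPM in selected cells, 2278 in cells with a sum of 0 and 191 in cells with Il7r or Ebf1 RNA. After thinning, S100a8 was seen in 13.1% of selected cells, 15.2% of cells with a sum of 0 and 10.9% of cells with Il7r or Ebf1 RNA, whose median depth was 16046 UMIs. Elane was seen in 17.9%, 18.2% and 13.4%. In selected CMP cells the shares were 0.261% for S100a8 and 4.17% for Elane. The part of free RNA in these shares was not tested. Mpo was seen in 13.1% of selected cells against 42.9% of cells with Il7r or Ebf1 RNA. Among the selected cells, 59 of the 212 Mpo UMIs came from 1 cell and 25 of the 84 Dntt UMIs from another, and both were called doublets.

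Some G2M phase genes were higher in the selected cells. Of 22 G2M genes, 6 were 2-fold higher, 1 (Kif23) was 2-fold lower and 15 were neither, against LMPP cells with a sum of 0. None of 22 S phase genes passed 2-fold. Over all genes tested, 6.31% were 2-fold higher and 16.9% were 2-fold lower. The list sums were 3678 against 2412 CPM for G2M genes and 2049 against 2069 for S phase genes. In cells with Il7r or Ebf1 RNA both sums were higher than in selected cells, at 4823 CPM for G2M genes and 2503 for S phase genes. Mki67, a marker of dividing cells, was seen in 51.2% of selected cells after thinning, 25.0% of cells with a sum of 0 and 44.6% of cells with Il7r or Ebf1 RNA. Compared with the 1833 LMPP cells with a sum of 0 and 3 or more Mki67 UMIs, 353 genes were 2-fold higher in selected cells and 976 lower. Gata1 was then at a log2 fold of 5.29.

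All 14 immediate early genes with enough RNA were 2-fold lower in selected LMPP cells than in cells with a sum of 0. Over all genes tested, 16.9% were 2-fold lower. Immediate early genes respond to growth signals and to the stress of cell isolation. Jun was at 848 against 3296 CPM and Fos at 734 against 2561. In CMP the same contrast had 2 of 15 genes lower and none higher, with Jun at 2445 against 2750. The cells with a sum of 0 themselves differed between libraries for Fos, at 2561 in LMPP and 612 in CMP. The part of handling in these values was not tested.

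Selected LMPP cells and selected CMP cells were then set side by side, over 5867 genes. In LMPP, 174 genes (2.97%) were 2-fold or more higher and 356 (6.07%) were 2-fold or more lower, with a median log2 fold of 0.03. Of the 174, 39 (22.4%) differed 2-fold in the same direction between the cells with a sum of 0, and so did 51 of the 356 (14.3%). Over all 6254 genes compared between the cells with a sum of 0, 5.23% were 2-fold higher in LMPP and 1.1% were 2-fold lower. The library and the cell population cannot be told apart here.

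Of the 12 genes furthest above CMP, S100a9 and S100a8 are neutrophil genes that were also higher in LMPP between the cells with a sum of 0, with S100a8 at 800 against 13.0 CPM. The others were Hba-a1, Hbb-bs, Rhag, Cldn13, Ccne1, Mt2, Rhd, Sphk1, Asns and Sfi1. Ccne1, cyclin E1, was at 73.7 CPM in selected LMPP cells and 9.92 in selected CMP cells (7.43-fold, 5.84 to 9.47), and at 8.76 and 7.92 in the cells with a sum of 0. Asns, asparagine synthetase, was at 143 against 27.7 (5.18-fold, 4.44 to 6.05), and at 11.4 and 13.8 in the cells with a sum of 0. Sfi1 was at 84.1 against 16.1, but at 123 against 21.3 between the cells with a sum of 0.

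The 12 genes furthest below CMP were Gadd45b, Phlda1, Nkg7, H1fx, Cdkn1a, Arl2bp, Bin1, Spns3, Cst7, Ier3, Nfkbia and Csrp3. Nfkbia, the NF-kappaB inhibitor, was at 115 CPM in selected LMPP cells and 670 in selected CMP cells, and at 139 and 287 in the cells with a sum of 0. Csrp3, a LIM-domain protein, was at 14.4 against 77.3. Phlda1 was at 13.6 against 147. Cdkn1a, the cell cycle inhibitor p21, was at 16.0 against 126, and at 49.0 against 209 between the cells with a sum of 0.

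Nearest neighbours gave a view over 2000 variable genes without the 3 selection genes. Each cell's 20 nearest neighbours were taken among all LMPP and CMP cells. On average 48.2% of a selected LMPP cell's neighbours were other selected LMPP cells and 36.0% were selected CMP cells, though these made up 0.547% and 5.00% of all cells. Only 5.48% were LMPP cells with a sum of 0, which made up 46.7%. At least 10 of the 20 neighbours were selected cells of either library for 74 of the 84 cells, and 1 cell had none. For selected CMP cells, 99.0% of neighbours came from CMP and 69.4% were selected cells of either library.

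The 84 cells differed widely among themselves in heme synthesis RNA. The 10 heme genes together took 0 UMIs per 10000 in the lowest cell, 8.19 in the median cell and 41.7 in the highest. Across the 84 cells of this 1 library, the heme list was positively correlated with the membrane list (Spearman's rho 0.54) and the globin list (0.59), and negatively with the stem and multipotent list (-0.78). Without Ifitm1 the last value was -0.45, and Ifitm1 alone gave -0.80. Heme synthesis RNA was also positively correlated with the cell's UMI total (0.61). These correlations are over cells that share a library, and are given as descriptions.

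**Figure D4:**
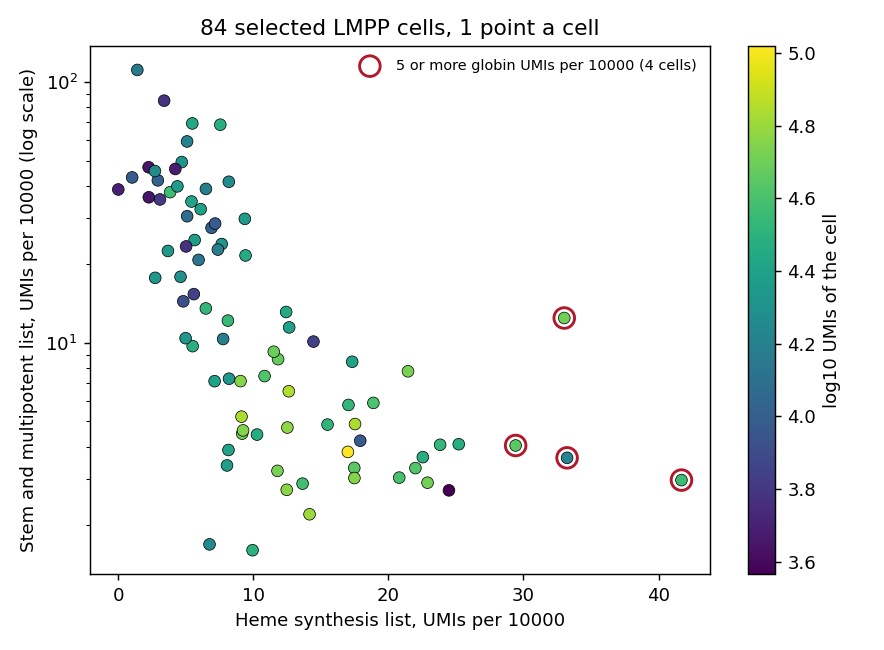
Heme synthesis list against stem and multipotent list (log scale), both in UMIs per 10000 of the cell, for the 84 selected LMPP cells, coloured by the cell's UMI total. Cells high for one list are low for the other (rho -0.78), deeper cells lie to the right, and the 4 ringed cells with 5 or more globin UMIs per 10000 are among those richest in heme synthesis RNA.

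To show what changes along that range, the cells were ordered by heme synthesis RNA and divided into 3 sets of 28, so that heme genes themselves are no result here. The sets are ranges of a score and not cell types. Median UMI counts were 14952, 28408 and 40094 in the sets with the least, middle and most heme synthesis RNA, and 4, 6 and 2 cells of these sets were called doublets. The part of depth was not tested.

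Gata2 stood at 133 CPM in the set with the least heme synthesis RNA, 34.0 in the middle set and 15.4 in the set with the most. Gata1 went the other way, at 51.9, 76.0 and 96.4. Epor was at 11.3, 40.8 and 52.9 and Tfrc at 22.6, 63.5 and 190. The ratios of most to least were 0.115 for Gata2 (0.0641 to 0.199), 1.86 for Gata1 (1.18 to 3.05) and 8.44 for Tfrc (4.50 to 17.8).

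Membrane genes split along the range. Rhd was at 2.26, 48.8 and 265 CPM and Rhag at 9.02, 54.4 and 105. Aqp1 (108, 161 and 149) and Icam4 (65.4, 53.3 and 72.5) were present throughout. Hba-a1 UMIs lay only in the set with the most heme synthesis RNA. Of the genes high in selected CMP cells, Ifitm1 was at 2722, 835 and 166 CPM and Apoe at 647, 373 and 49.5. Of those high against CMP, Ccne1 was at 6.77, 29.5 and 132 and Asns at 6.77, 86.2 and 238. Mki67 was at 571, 422 and 620, without such an order.

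**Figure D5:**
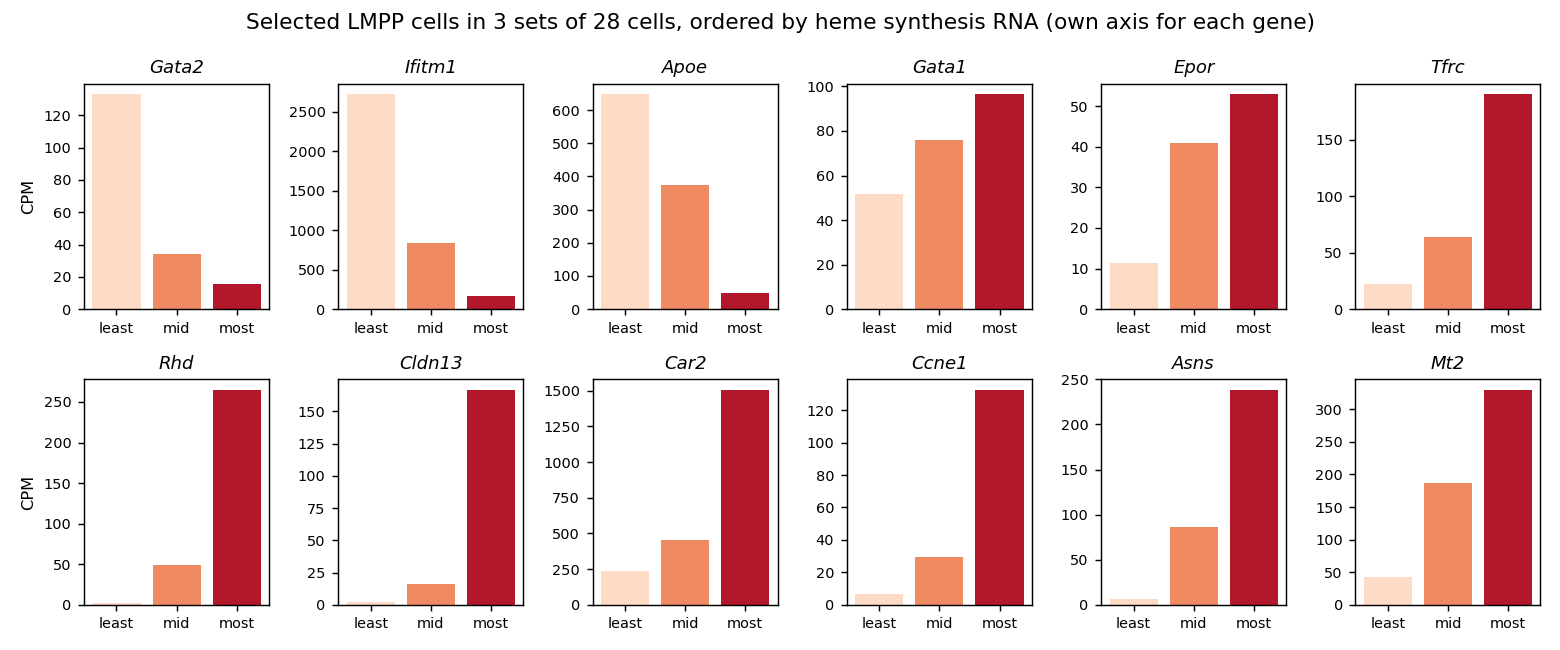
Pooled level in CPM of 12 genes in the 3 sets of 28 selected LMPP cells with the least, middle and most heme synthesis RNA, each gene on its own axis from 0. Gata2, Ifitm1 and Apoe are highest in the first set, and Tfrc, Rhd, Cldn13, Car2, Ccne1, Asns and Mt2 in the last.

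The sets also differed in their neighbours. Selected CMP cells made up 39.3%, 48.6% and 20.2% of neighbours in the sets with the least, middle and most heme synthesis RNA. Selected LMPP cells made up 24.3%, 41.4% and 78.9%, and LMPP cells with a sum of 0 made up 13.0%, 3.39% and 0%. Selected LMPP cells were thus the main neighbours of the set with the most heme synthesis RNA.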

How the data were processed

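Single bone marrow cells were profiled with the 10x 3′ kit in 5 libraries. The authors deposited raw UMI counts per gene and barcode as filtered matrices. The file headers name Cell Ranger 6.1.1, while the submitters' processing notes name Cell Ranger 3.1.0, Seurat 3.1.1 and mm10. Deposited totals were 93770259 UMIs in 8116 barcodes for LMPP and 90067195 in 7389 for CMP. After the barcode filter, UMIs were summed over the cells of a group and scaled to 1000000 (CPM). Genes with 20 or more CPM in either group were compared as log2(value + 1), called at 2-fold. Ratios carry exact conditional binomial 95% intervals. Cells were thinned once to 2000 UMIs. Doublets were the top 0.8% per 1000 barcodes by a score from artificial doublets, and were kept. Python 3.11.15, numpy 2.4.6, scipy 1.17.1 and scikit-learn 1.9.0 were used, and the fold script was tested on simulated data. The cells and gene lists were chosen with earlier results of these data known. Named genes are those of the erythroid lists, the leading genes of other lists and the 12 largest folds each way with 50 or more CPM. Predicted, mitochondrial, ribosomal and sex-linked (Xist and Y) genes were left out of these folds. Kif23, Cma1, Slc4a1 and Vwf, and the division into 3 sets, were chosen after their values were seen. Some genes of the lists are counted but not reported here by name.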

Additional observations from a re-analysis of the deposited data

How the results depend on the processing

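The number of selected LMPP cells was 84, and 93 at a threshold of 3, 73 at a threshold of 10, 85 with the threshold per 10000 UMIs, 85 over all deposited barcodes and 72 without called doublets. The 1498 genes past 2-fold within LMPP became 726 with a minimum of 50 CPM. The 530 genes past 2-fold between selected LMPP and CMP cells became 264 with that minimum and 1331 (582 higher, 749 lower) with cells thinned to 2000 UMIs, where 84 cells hold few UMIs per gene. The log2 fold of Gata1 was 3.79 with 5 CPM added, and 5.07 to 5.36 under the other alternatives. The log2 fold of the summed erythroid lists was 1.26. It was 1.20 at a threshold of 3, 1.28 at a threshold of 10, 1.30 without called doublets, 1.11 with cells weighted equally and 1.14 thinned. Against LMPP cells with a sum of 0 at or above the lower quartile of selected cells' UMIs it was 1.33, and against those with 3 or more Mki67 UMIs 1.35, both comparisons chosen after seeing the data. No direction reversed under these alternatives. No paired analysis was possible because no test was made and LMPP and CMP have 1 library each. With 84 cells in 1 library, spread between mice is unknown.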
